A study of Mus musculus with 16 samples.

Results

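Chromosome 4 (chr4) of the mouse clonal line MEF-2 line 4 was examined from 20 Mb to the end of the measured chromosome. The members were the CpGs of the series table on chr4 at or beyond 20 Mb, without the stretch from 89.2 to 89.4 Mb. They numbered 85925 of the 1203687 CpGs of the table (7.14%). Another 5122 CpGs lay on chr4 before 20 Mb, and 234 in the stretch that was left out. The region was chosen because levels near 50% were rare there in MEF-2 line 4 at unchanged coverage, so line 4 against the other MEF-2 lines is given as a description, without a test. Target capture bisulfite sequencing (tcBS-seq), which reads methylation at single CpGs within captured regions, was done on 16 libraries of immortalised mouse embryonic fibroblasts (MEFs). A pair of C57BL/6J embryos of one litter, taken at E13.5, gave the cultures MEF-1 and MEF-2, which differed in sex and were immortalised by serial passage through crisis. Each parental culture was sequenced once, and each gave 7 clonal lines, every line grown from a single sorted cell. No line had a treatment, transgene or deletion named in the labels. Line 4 is therefore a single clone with a single library, and the cell type could not be checked against marker expression in methylation data.

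In mammals a CpG is methylated symmetrically on both DNA strands of a chromosome copy, and after replication the maintenance methyltransferase Dnmt1 copies the mark to the new strand. All cells of a clone descend from 1 founder. Where the founder holds 1 maternal and 1 paternal copy of a chromosome, these contribute reads in like numbers. Where in addition the mark is copied faithfully, a level near 50% in a clone means that the homologues of the founder differed. Imprinted regions are the classic case of a stable level near 50%, with one parental copy methylated. Mouse chr4 carries genes for developmental transcription factors, signalling receptors and, towards its end, a large cluster of zinc finger genes.

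In all, 6 stretches of up to 300 bases show what line 4 looked like at base level. They are the windows with the most reference CpGs in 3 low and 3 high genes, which by their median reference CpG were under 20% or over 80% in line 4 and had the most reference CpGs. Klhl32 and Slc2a5 tied for the third low place with 10 each, and Klhl32, the first along the chromosome, was taken. A reference CpG had a pooled level of 40 to 60% over the other 6 MEF-2 clonal lines and a level of 20 to 80% in each of them. Sequence is from RefSeq GRCm38 (the build also called mm10), plus strand, with the reference CpGs in capitals. The stretches mostly low in line 4 lay in an exon of Oxct2b (chr4:123116527-123116821), a gene for a ketone body enzyme, in an intron of Csmd2 (chr4:127989330-127989552), a gene for a membrane protein with complement control domains, and in an intron of Klhl32 (chr4:24849714-24849996), a kelch-family gene.
Oxct2b: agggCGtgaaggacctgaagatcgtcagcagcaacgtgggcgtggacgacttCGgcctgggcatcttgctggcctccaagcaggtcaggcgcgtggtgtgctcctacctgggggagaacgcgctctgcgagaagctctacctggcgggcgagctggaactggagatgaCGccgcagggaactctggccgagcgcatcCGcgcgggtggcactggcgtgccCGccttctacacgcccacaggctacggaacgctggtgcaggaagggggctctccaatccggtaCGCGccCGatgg
Csmd2: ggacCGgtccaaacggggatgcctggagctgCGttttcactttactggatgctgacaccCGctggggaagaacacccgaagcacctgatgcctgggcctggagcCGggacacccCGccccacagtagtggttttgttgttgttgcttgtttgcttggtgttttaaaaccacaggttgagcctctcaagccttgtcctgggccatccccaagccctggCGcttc
Klhl32: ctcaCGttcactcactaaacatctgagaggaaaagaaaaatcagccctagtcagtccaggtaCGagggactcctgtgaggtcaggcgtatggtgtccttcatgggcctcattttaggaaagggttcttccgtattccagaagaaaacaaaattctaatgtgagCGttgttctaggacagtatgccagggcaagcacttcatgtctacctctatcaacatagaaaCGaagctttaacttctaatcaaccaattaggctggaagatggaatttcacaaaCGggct
The stretches high in line 4 lay in an intron of Rnf220 (chr4:117360832-117361009), a ubiquitin ligase gene, across an intron and an exon of Runx3 (chr4:135155267-135155440), a runt-family transcription factor gene, and in an intron of Nfib (chr4:82538178-82538469), a gene of the nuclear factor I family.
Rnf220: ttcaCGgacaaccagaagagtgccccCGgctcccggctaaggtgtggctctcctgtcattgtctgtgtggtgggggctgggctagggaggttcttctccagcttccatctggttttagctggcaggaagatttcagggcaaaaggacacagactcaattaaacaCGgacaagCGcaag
Runx3: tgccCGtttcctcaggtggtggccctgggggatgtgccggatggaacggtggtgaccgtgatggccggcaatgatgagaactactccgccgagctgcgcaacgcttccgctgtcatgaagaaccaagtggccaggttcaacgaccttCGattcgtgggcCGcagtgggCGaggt
Nfib: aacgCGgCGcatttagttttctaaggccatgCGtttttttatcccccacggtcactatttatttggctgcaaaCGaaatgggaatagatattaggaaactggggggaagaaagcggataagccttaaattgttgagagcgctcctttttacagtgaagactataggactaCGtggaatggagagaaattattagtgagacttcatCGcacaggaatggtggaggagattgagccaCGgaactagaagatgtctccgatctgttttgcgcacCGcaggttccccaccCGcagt

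Of the 36 reference CpGs in these 6 stretches, 33 were under 20% or over 80% in line 4. The genes were picked as low or high in line 4, so this count largely follows from the choice. Such levels were found at 17.5% of reference CpGs on all 16 chromosomes and 12.9% on the 15 other than 4. In the region 26.9% of reference CpGs were at 20 to 80% in line 4. In the read counts of the stretches, a read is counted once for each CpG it covers. Over the 6 CpGs of the Csmd2 stretch, 3 of 184 reads were methylated in line 4, or 1.63% (95% Wilson interval 0.556 to 4.68%). The same CpGs were at 39.3 to 59.0% in the other 6 lines, with a median of 46.7%, and at 34.4% (28.4 to 40.9%) in the parental culture. The 5 Klhl32 CpGs were at 5.05% (2.84 to 8.81%, 218 reads) in line 4 against 38.4 to 57.3% in the other lines and 56.1% (50.2 to 61.8%) in the parental culture. Line 4 lay below every other MEF-2 library in both stretches. In the Oxct2b stretch line 4 stood at 24.9% (19.1 to 31.6%, 181 reads), since 3 of the 8 CpGs were between 21.1% and 58.1%. The other lines were at 38.1 to 55.5% there. Oxct2b has the close paralog Oxct2a on the same chromosome, so its values are uncertain.

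All 9 CpGs of the Nfib stretch were between 94.1% and 100% in line 4, and 493 of 509 reads were methylated, or 96.9% (95.0 to 98.1%). In the other 6 lines the stretch was at 47.6 to 61.8% (median 53.3%) and in the parental culture at 53.9% (50.0 to 57.7%, 644 reads). The Rnf220 stretch was at 92.5% (87.6 to 95.6%, 173 reads) in line 4, at 37.9 to 56.8% in the other lines and at 62.5% (56.9 to 67.7%) in the parental culture. The Runx3 stretch, with 66 reads in line 4 over its 4 CpGs, was at 95.5% (87.5 to 98.4%) against 44.2 to 57.9% and 55.1% (46.8 to 63.2%). No other MEF-2 library came near line 4 in any of these 3 stretches. In the 7 MEF-1 clonal lines, which the choice of the region did not use, the medians were 41.7% at Nfib, 62.8% at Rnf220, 79.6% at Runx3, 35.0% at Csmd2, 66.3% at Klhl32 and 16.6% at Oxct2b. Wilson intervals cover counting error only, and they treat all counts of a stretch as independent. Reads that cover several CpGs of a stretch are counted repeatedly, so the intervals can be too narrow even for counting error.

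Library totals ran from 59243669 to 90633091 calls (1 call is 1 read over 1 CpG), and MEF-2 line 4 had 63958720. The median depth per CpG in the region was 27 reads in line 4, 27 to 36 reads in the other 6 MEF-2 lines and 38 reads in their parental culture. Coverage of the region, scaled to the median chromosome of each library, was 0.986 in line 4 relative to the median of the other lines, which themselves ranged from 0.985 to 1.01. MEF-2 line 3 had the highest shares of the 7 lines in the region at 10 to 40% (11.6%) and at 60 to 90% (10.6%). It is one of the 6 lines that define the reference CpGs.

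In line 4, 4.25% of the 85925 CpGs had a level of 40 to 60%. In the other 6 lines this share was 9.09% at the lowest, 10.1% at the median and 10.5% at the highest, and in the parental culture 8.54%. On the other 15 chromosomes line 4 had 9.55%, within the 8.63 to 10.2% of the other lines. Larger shares lay at both ends of the scale. Levels of 0 to 10% made up 46.7% of CpGs in line 4 and 43.4 to 45.01% in the other lines, and levels of 90 to 100% made up 31.8% against 25.4 to 28.5%. In these 3 shares line 4 lay outside the range of the other lines. The mean level was 42.3% in line 4 and 40.8 to 42.2% in the others.

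The gap held along the chromosome. In 27 of 28 windows of 5 Mb line 4 had a smaller share near 50% than each of the other 6 lines, against 15.5% of all windows of the table and 9.44% of those on the other 15 chromosomes. It ranged from 2.68 to 7.27% between windows, and single values of the other lines from 4.20 to 14.1%. The exception was the window from 25 to 30 Mb, with 5 reference CpGs, where line 4 had 4.55% and the lowest other line 4.20%. Coverage of line 4 relative to the others stayed at 0.964 to 1.03 by window. For these shares and coverages, the window from 85 to 90 Mb also held the 234 CpGs of the stretch left out elsewhere.

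**Figure D1:**
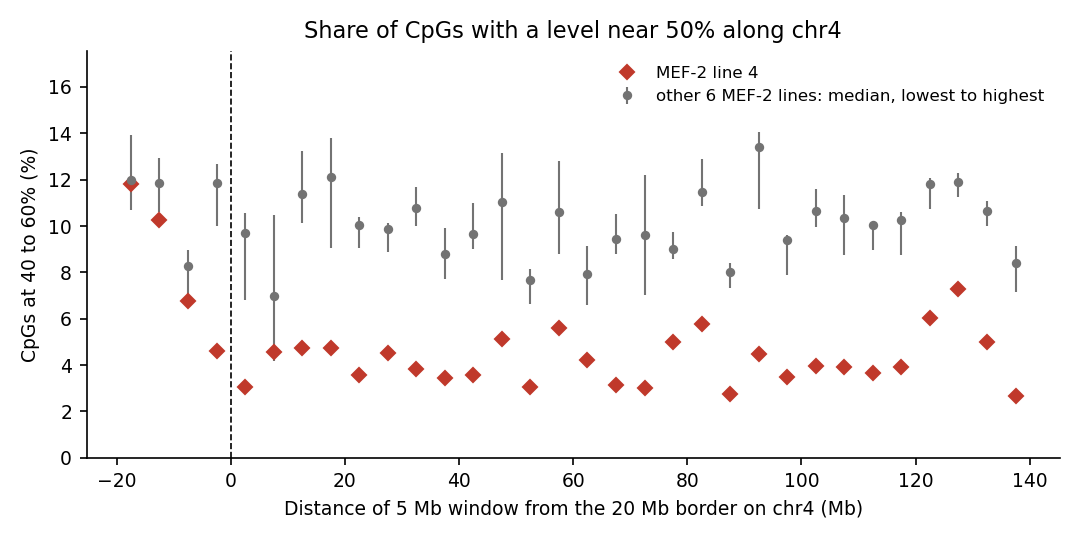
Share of CpGs at 40 to 60% (y, percent) in 5 Mb windows against the distance of the window centre from the 20 Mb border (x, Mb). Red diamonds are MEF-2 line 4, grey points the median of the other 6 MEF-2 lines with bars from the lowest to the highest line. The window from 85 to 90 Mb includes the stretch left out elsewhere. To the right of the dashed border line 4 stays at 2.68 to 7.27% and under the bars in 27 of 28 windows. To its left the windows from 15 to 20, 10 to 15 and 5 to 10 Mb also lie under their bars. Line 4 has 4.62%, 6.76% and 10.2% there, against 9.99%, 7.08% and 10.6% in the lowest other line.

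At the 4011 reference CpGs of the region (4.67% of its CpGs) line 4 was at 20 to 80% in 1077 (26.9%), under 20% in 1378 (34.4%) and over 80% in 1556 (38.8%). CpGs at 20 to 80% in line 4 are called kept, and the rest low or high. Across all 16 chromosomes the low or high CpGs together made up 17.5% of reference CpGs, the low ones 6.62% and the high ones 10.9%. On the 15 chromosomes other than 4 these shares were 12.9%, 4.32% and 8.55%. This contrast chose the region, so nothing is read from the gap. At the ends of the scale, 1060 reference CpGs were under 10% and 1209 were over 90%. A level of 40 to 60% was left in 405 (10.1%), against 54.6 to 66.3% in the single other lines and 53.1% in the parental culture. The low and high CpGs nearly balanced, and the pooled level was 51.8% in line 4, 49.7% in the other lines and 51.3% in the parental culture.

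**Figure D2:**
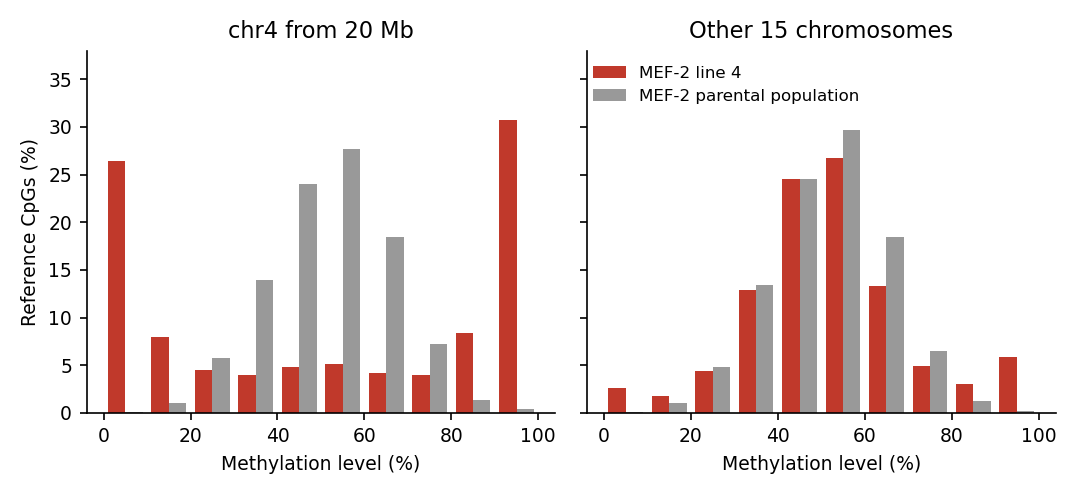
Distribution of methylation levels (x, percent, in steps of 10) at reference CpGs, as a share of reference CpGs (y, percent), on chr4 from 20 Mb (left) and on the other 15 chromosomes (right). Bars are MEF-2 line 4 (red) and the MEF-2 parental culture (grey). On chr4 line 4 has 26.4% of CpGs in the lowest and 30.7% in the highest step, whereas on the other chromosomes it has 2.57% and 5.82% there and the parental culture has 0.131% and 0.153%.

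On each of the other 15 chromosomes line 4 kept 85.9 to 89.0% of reference CpGs (mean 87.2% ± 0.988, SD over chromosomes). For each other MEF-2 line, reference CpGs were defined again from the remaining 5 lines without line 4, which gave 4394 to 4758 CpGs in the region. These lines kept 82.3 to 89.3% of them (mean 85.7% ± 3.54, SD, n = 6). With line 4 among the defining lines fewer CpGs qualified (1258 to 1389), and the lines kept 79.0 to 87.0%. The shift in line 4 was not limited to CpGs near 50%. Where the other 6 lines had a pooled level of 20 to 30%, line 4 was at 20 to 80% in 35.2% of 3238 CpGs on chr4 and in 50.3% of 37402 CpGs elsewhere. At a pooled level of 70 to 80% the shares were 33.1% of 3166 and 48.9% of 40208. Where the other lines had a pooled level under 10% or over 90%, line 4 was on the same side, under 20% or over 80%, about as often as elsewhere. The shares were 96.8% and 97.5% on chr4 and 96.9% and 97.6% on other chromosomes. Line 4 was on the opposite side in 0.105% and 0.0567% of CpGs on chr4 and in 0.0444% and 0.0115% elsewhere.

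In the region the other 6 MEF-2 lines had 10.0% ± 0.487 (SD) of CpGs at 40 to 60% and the 7 MEF-1 lines 10.1% ± 0.632, a difference of -0.0502 points. Within the 6 MEF-2 lines the share in the region exceeded that on the other chromosomes by 0.345 points ± 0.161 (SD), in 6 of 6 lines. The choice of the region set line 4 against these 6 lines, so both values are a description, with no test.

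The border of 20 Mb did not mark where line 4 began to differ. With the 10-read minimum asked of the 8 MEF-2 libraries only, line 4 kept 163 of 193 reference CpGs (84.5%) from 3 to 12 Mb, 3 of 8 from 12 to 13 Mb, 10 of 49 (20.4%) from 13 to 20 Mb and 8 of 51 (15.7%) from 20 to 25 Mb. The change of pattern thus lay near 12 Mb. The last reference CpG with a level near 50% before it, at position 11896627, was at 51.4% in line 4 (37 reads). The next, at 11914629, was at 73.7%, and those at 11964339, 11967043, 12088769 and 12140907 were at 8.33%, 4.69%, 4.76% and 2.27%. In each of these last 4 the other lines stayed at 28.1% or more. Just outside the 20 Mb border, the CpG at 19992424 was at 41.8% in line 4, and just inside it the CpG at 20007325 was at 4.55%. Genes near the border are named where they had 3 or more reference CpGs, and other genes lie among them. Outside the border the nearest of these was Wwp1 (3 reference CpGs, 1 kept), a ubiquitin ligase gene. Next came Cpne3 (4, with 1 kept), a copine gene, and Calb1 (7, with 6 high and 1 low), which encodes the calcium-binding protein calbindin. Inside the border the nearest was Ttpa (6, with 1 kept), the gene for the alpha-tocopherol transfer protein. Next came Prdm13 (5, none kept), a PR-domain transcription factor gene, and Usp45 (4, none kept), a deubiquitinase gene.

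Kept CpGs were not spread evenly. Among 66 windows of 1 Mb with 20 or more reference CpGs, the median share kept was 21.8%, the lowest 8.57%, and 4 windows were over 50%. Of these, 3 lay side by side from 145 to 148 Mb. Line 4 kept 39 of 75, 53 of 75 and 105 of 130 reference CpGs in them, or 197 of 280 (70.4%) in all, against 23.6% of the 3731 in the rest of the region. The fourth was the window from 153 to 154 Mb, with 21 of 39. Median coverage at the reference CpGs from 145 to 148 Mb was 53 reads against 32 elsewhere in the region. The part of this higher coverage in the result was not tested. The stretch was noticed in these data and was not named beforehand.

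In that stretch lay 4 protein-coding genes with 5 or more reference CpGs. The zinc finger genes Zfp991, Zfp984 and Zfp988 kept 6 of 6, 9 of 11 and 7 of 9, while Gm13212 kept 2 of 13, with 6 low and 5 high. The stretch holds many closely related copies of such genes, so reads may be shared among copies and these values are uncertain. The authors excluded reads of low mapping quality, and how many shared reads this leaves was not tested. The median depth at the reference CpGs was 157 reads for Zfp991, 88 for Zfp984, 33 for Zfp988 and 149 for Gm13212. Elsewhere, Plekhg5 (4 of 5 kept), Dmbx1 (5 of 7) and Stra6l (6 of 9) had the highest shares kept.

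**Figure D3:**
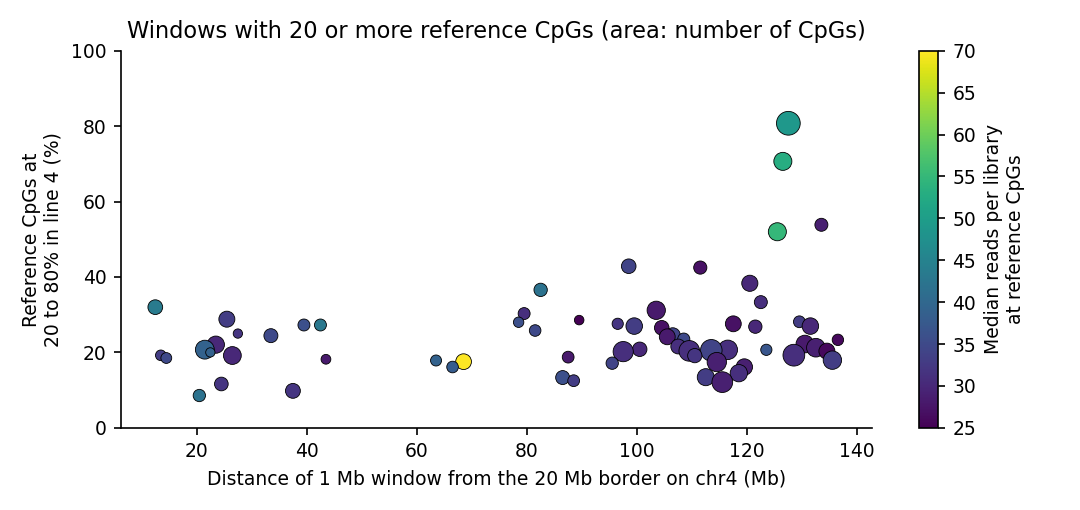
Share of reference CpGs at 20 to 80% in line 4 (y, percent) in 1 Mb windows with 20 or more reference CpGs, against the distance of the window centre from the 20 Mb border (x, Mb). Point area grows with the number of reference CpGs and colour gives their median reads per library. The windows with 70.7% and 80.8% kept, beside one with 52.0%, are those between 145 and 148 Mb, and the median window has 21.8%.

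The sides taken by neighbouring CpGs in line 4 were counted by distance. Among adjacent reference CpGs up to 10 bp apart that were both low or high, 149 of 152 pairs (98.0%) were on the same side. Such pairs mostly lie on the same reads. The share was 87.4% of 223 pairs at 10 to 50 bp, 69.1% of 139 at 50 to 100 bp, 66.0% of 194 at 100 to 200 bp 56.0% of 182 at 200 to 500 bp and 58.7% of 109 at 500 to 1000 bp. Beyond 1000 bp it was 46.8% of 310 pairs up to 5000 bp and 48.8% of 846 pairs up to 100000 bp, near the 50.2% that the counts of low and high CpGs alone give. On the other 15 chromosomes, where far fewer pairs were both low or high, the share was also highest up to 10 bp, with 90.5% of 63 pairs, and 77.3% of 75 at 10 to 50 bp. It was 22 of 40 pairs at 50 to 100 bp and 78.8% of 66 at 100 to 200 bp, so the order with distance was not steady, and beyond 5000 bp it was 56.9% of 371. The counts alone give 55.4% there. The difference between chr4 and the other chromosomes was not tested.

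**Figure D4:**
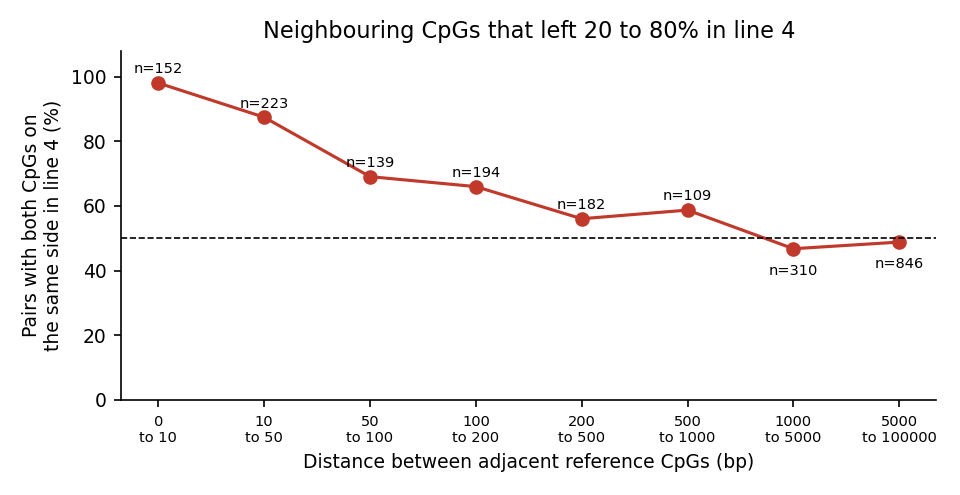
Share of adjacent reference CpG pairs with both CpGs low or both high in line 4 (y, percent) by the distance between them (x, bp), for pairs in which both CpGs were under 20% or over 80%. The number of pairs is printed at each point and the dashed line marks 50%. The share goes from 98.0% at up to 10 bp to 48.8% at 5000 to 100000 bp.

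By genomic location the share kept ran from 15.2 to 31.3%. In promoters (the 1000 bp upstream of a protein-coding transcript) line 4 kept 15.2% of 528 reference CpGs, with 37.9% low and 47.0% high. It kept 23.2% of 426 in exons, 27.2% of 1425 in introns and 31.3% of 1632 between genes. On the other chromosomes it kept 86.4 to 89.6% in every class, the highest in promoters. The median SD between the other 6 lines was 10.2 points at low, 10.1 at high and 12.2 at kept CpGs. Depth over 100 reads was found at 2.25% of low, 2.57% of high and 7.80% of kept CpGs, and the mean number of CpGs within 100 bp was 4.52, 4.68 and 5.16. The values of the region include the stretch from 145 to 148 Mb, with 197 of the 1077 kept CpGs. Its part in them was not tested.

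By gene, 167 protein-coding genes of the region had 5 or more reference CpGs in the gene body or promoter. The departure of a gene is the mean distance of its reference CpG levels from 50%, in percentage points. Its median over the 167 genes was 38.4 in line 4, 8.84 in the other 6 lines (median line) and 10.5 in the parental culture. Line 4 was farther from 50% than all 6 other lines in 166 genes. Over all 16 chromosomes 54.8% of genes met this, and over the other 15 chromosomes 50.9%. The other 6 lines, and not line 4, define the reference CpGs. On those chromosomes the median departure of 1961 genes was 13.2 in line 4 and 8.99 in the other lines. The exception in the region was Zfp991, with 10.7 in line 4 and 6.49 to 15.6 in the others. By their median reference CpG in line 4, 36 genes were low, 50 high and 81 in between. Across the 16 chromosomes 1.73% of genes were low and 2.76% high by this measure, and on the 15 other chromosomes 0.051% and 0.408%. Both low and high CpGs were held by 140 of the 167 genes, against 18.6% of genes on the 16 chromosomes and 13.1% on the 15 others. No kept CpG was left in 43 genes, against 2.06% and 0%. All reference CpGs were high in 3 genes, against 0.14% and 0%. These 3 were Zbtb48 and Zfp683, both zinc finger genes, and Oxct2a, the paralog of Oxct2b, and they were singled out after their values were seen.

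The genes with the most reference CpGs among the low ones were mainly low, with exceptions inside each. Csmd2 had 13 reference CpGs, all intronic, of which 10 were low and 3 kept. Its pooled level was 15.5% in line 4, 45.1% at the lowest, 49.0% at the median and 53.9% at the highest of the other lines, and 43.6% in the parental culture. Raver2, which encodes an RNA-binding protein, had 7 of 8 low, with 11.9% in line 4 against 37.7 to 54.7%. Palm2, a paralemmin gene that overlaps Pakap, had 6 of 7 low, with 10.3% against 37.4 to 52.7%. In all 3 genes line 4 lay under every other MEF-2 library. Klhl32 had 7 of 10 low and stood at 15.6% against 45.1 to 55.9%. Oxct2b had 8 of 13 low. Disp3, a gene of the dispatched family, and Phf24, a PHD finger gene, each had 6 low, of 8 and 9. Acer2, the gene of a Golgi ceramidase, and Prkcz, which encodes the atypical protein kinase C zeta, each had 6 low and 3 high CpGs of 9. Slc2a5, the fructose transporter gene, had 6 low and 4 high of 10, and its pooled level of 46.0% in line 4 was close to the 48.2 to 57.9% of the other lines although its departure was 45.02 against 8.87 to 12.6. Pax7, a transcription factor gene of muscle stem cells, with 5 low and 4 high, and Susd1, a sushi domain gene, with 5 low, 2 kept and 2 high, had pooled levels in line 4 within the range of the other lines. In such genes low and high CpGs offset each other in the pooled level.

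The leading high genes were Rnf220, Runx3 and Nfib. Of the 26 Runx3 reference CpGs, 22 were high, 4 low and none kept, and the pooled level was 82.7% in line 4, 44.1 to 58.1% in the other lines and 66.1% in the parental culture. Rnf220 had 38 reference CpGs, with 23 high, 9 kept and 6 low, and 75.0% against 46.6 to 52.3%. Nfib had 11 high, 5 kept and 2 low of 18, and 81.3% against 48.8 to 60.6%. Line 4 was above all other MEF-2 libraries in each of the 3 genes. Bmp8a, the gene of a bone morphogenetic protein, had 8 of 12 high (76.1% against 45.9 to 55.4%). Oxct2a lies inside Bmp8a, so its 5 high CpGs are among these 8. Tcea3, a transcription elongation factor gene, had 7 of 10 high (77.4% against 44.4 to 57.4%). Epb41l4b, a band 4.1 family gene, had 8 high and 4 low of 12. Slc44a1, the choline transporter gene, had 6 high of 11 and Agbl4, a cytosolic carboxypeptidase gene, 5 high of 9. No kept CpG was found in Tfap2e, an AP-2 transcription factor gene (7 high, 4 low), and Pax5, the B cell transcription factor gene (6 and 4).

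The genes in between with the most reference CpGs were mixed. Pde4b and Casz1 tied for the fourth place with 22, and Casz1 is described with the transcription factors. Camta1, a calmodulin-binding transcription activator gene, had the most reference CpGs of all, 48, with 23 low, 10 kept and 15 high. Its pooled level was 39.9% in line 4 and 48.4 to 50.5% in the other lines, and its departure 39.4 against 7.51 to 10.2. Gabbr2, a GABA-B receptor subunit gene, had 10 low, 9 kept and 6 high of 25. Pde4b, a cyclic AMP phosphodiesterase gene, had 10, 4 and 8 of 22. Bmp8b, which contains Oxct2b and so shares CpGs with it, had 11, 9 and 3 of 23. Bmp8a and Bmp8b are close paralogs, which makes their values uncertain too.

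**Figure D5:**
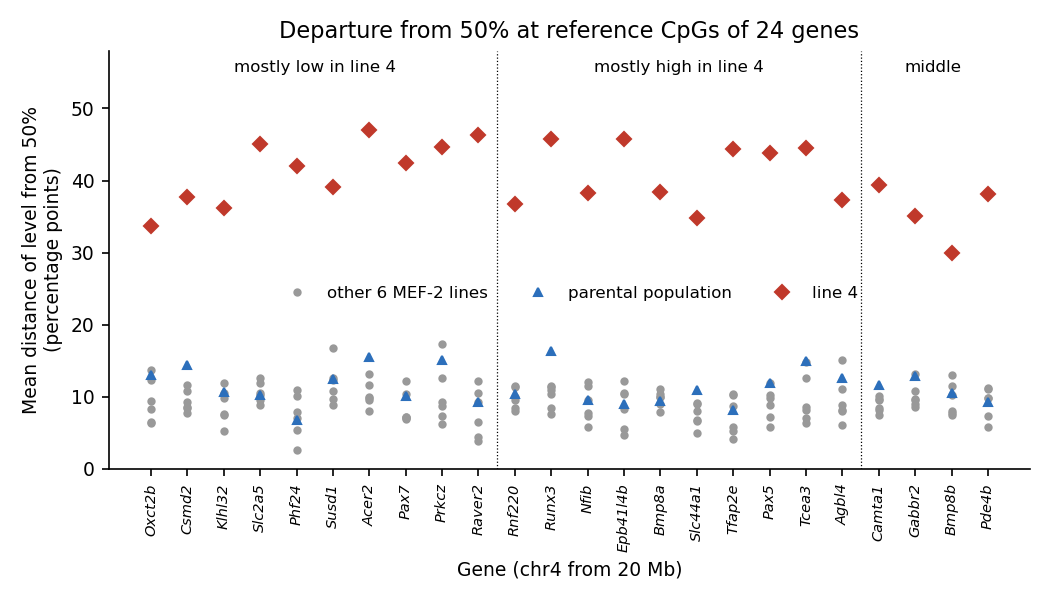
Mean distance of reference CpG levels from 50% (y, percentage points) for 24 genes of the region (x), in groups by their median reference CpG in line 4: the 10 low and the 10 high genes with the most reference CpGs and 4 in between. Red diamonds are line 4, grey points the other 6 MEF-2 lines and blue triangles the parental culture. Line 4 is the highest library in each of these genes, for example 45.8 in Runx3 where the other lines have 7.68 to 11.6.

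Genes were also grouped into 5 lists by function. Line 4 kept 26 of 151 reference CpGs (17.2%) in genes of developmental transcription factors, with 46 low and 79 high. In gap junction and ion channel genes it kept 10 of 51 (19.6%), in growth control and DNA repair genes 23 of 101 (22.8%), and in matrix and fibroblast genes 8 of 33 (24.2%). For cell surface signalling genes it kept 39 of 105 (37.1%). The region as a whole had 26.9%. The lists held 12, 4, 6, 2 and 7 genes with 5 or more reference CpGs, in that order. In all of them line 4 was farther from 50% than the other 6 lines, as in 166 of the 167 genes of the region, against 54.8% of genes on the 16 chromosomes. Among the transcription factor genes not yet described, Casz1 had 8 low, 6 kept and 8 high of 22, and Tal1, a blood lineage gene, had 2, 1 and 4 of 7. Bach2 kept 5 of 8 and Prdm16 3 of 5, both without a low CpG. Of the signalling genes, Dab1, an adaptor of reelin signalling, kept 6 of 11, and Ephb2, an ephrin receptor gene, 4 of 10. The channel genes Kcnab2 (5 low and 5 high) and Grik3 (3 low, 2 kept and 5 high) had 10 each.

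The sides taken in line 4 were then compared with the MEF-1 lines, which the choice of the region did not use. In the 7 MEF-1 lines the mean level was 56.0% at CpGs high in line 4 and 54.1% at CpGs low in it. The difference was 1.92 points ± 0.478 (SD), with a positive sign in 7 of 7 lines. By the exact sign-flip test on both sides p was 0.015625, no smaller value being possible with 7 lines. The p adjusted by Benjamini and Hochberg over the 3 exact tests between lines was 0.0469. The other tests of the 3 are given as values only, since the choice of the region used them. Nothing is therefore read from the adjusted p. The MEF-1 lines share a parental culture, so the exact p measures the spread between clones and not between animals. All 7 lines were read at the same CpGs, sorted by the line 4 levels that the choice of the region used. The p therefore does not cover which CpGs fell high or low. In the MEF-1 parental culture the difference was 2.50 points, so a shared sign among its clones carries little weight. The call did not last, since with at least 20 reads in all libraries the difference was -0.316 points (exact p = 0.09375). On the other 15 chromosomes the same difference, taken at reference CpGs high or low in line 4, was 2.07 to 17.98 points by chromosome (median 14.3). The 2.07 points were on chromosome 6 (-0.661 to 4.30 by MEF-1 line), close to the 1.92 on chr4, and chromosome 8 came next with 10.1. High or low CpGs were 12.9% of reference CpGs elsewhere but most of those in the region, so the sets are unlike. The MEF-2 libraries were among those the region was chosen against and are given as a description. In the MEF-2 parental culture the CpGs high in line 4 were at 55.7% and those low in it at 45.6%, a difference of 10.1 points. On the other chromosomes this was 7.85 to 12.99 points (median 10.9), a range that holds the value of chr4. Within the region the other 6 MEF-2 lines differed by 0.0736 to 1.95 points. These lines also define the reference CpGs. By chromosome elsewhere, the lowest of the 6 lines was at -0.377 to 2.82 points and the highest at 5.76 to 9.40.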

How the data were processed

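DNA was captured, bisulfite converted and sequenced in 16 libraries. Per the study's methods and processing notes, the authors trimmed reads with Trim Galore 0.6.0, aligned them to mm10 with Bismark and merged the strands of each CpG. They also excluded reads with a mapping quality under 10 and a few bases at read ends. The deposited values are counts of unmethylated and methylated reads per CpG, without normalization. Removal of PCR duplicates is not given in the sources used here. The series table holds CpGs on 16 chromosomes that reached 10 reads in each of the 16 libraries. Per the study's methods, chromosomes whose coverage pointed to aneuploidy in any of the lines were removed, as were the sex chromosomes. The other chromosomes used here for comparison are those left after this filter. At all 91281 chr4 CpGs the counts of the series table equalled those of the library tables. In the region, 25 CpGs did not lie at a CpG of GRCm38.

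The level was the percentage of reads called methylated. Groups and line numbers came from the sample labels. Genes, exons and transcript starts were from GENCODE M21, with promoters of 1000 bp. Exact permutation and sign-flip tests were written in Python 3.11.15 (numpy 2.4.6, scipy 1.17.1) and tested on simulated data. Same-numbered lines of the families were not paired, since their deviations from the family means did not correlate. The region, gene lists and tests were chosen with earlier results of these data known. Of the 3 exact tests between lines, the 2 that use the shares of the other MEF-2 lines near 50% are given as values only, since the choice of the region used these shares. Named genes had 5 or more reference CpGs: the 12 with most among low genes, the 12 with most among high genes and the 4 with most in between, besides list genes and genes at the border. Ties went to the gene with the lower start position. Some genes that meet this rule are not reported here. Alternatives changed the read minimum, depth, level limits, region start, reference definition and lines used. Expression data and differences between other lines were not analysed here.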

Additional observations from a re-analysis of the deposited data

Results flagged for a closer look

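A line far from the rest was looked for in 5 sets of 6 or 7 line values, by the gap to the nearest line over the whole range (Dixon's 95% limit). Values of the MEF-2 lines on chr4 from 20 Mb were left out, since the choice of the region used them. In 1 of the 5 sets a line stood apart. Chance gives about 1 in 20 for each single set, so nothing is read from 1 flag among 5 sets. On the other 15 chromosomes MEF-2 line 3 had the lowest share of CpGs at 40 to 60% of the 7 MEF-2 lines (8.63%).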

How the results depend on the processing

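Of 43 alternatives, 32 left the result in place, 6 moved a value, 1 ended a call and 4 turned the sign of a difference. For differences, in place meant the same sign and an unchanged call by the exact p. For line 4 values it meant a move smaller than the SD of the other 6 lines. The ended call had 4 lines, too few for any exact p to hold it. Most alternatives concern values that the choice of the region used, so the tally is a description. The share kept by line 4 was 22.0% with each of the other 6 lines at 30 to 70%, 43.4% with limits of 10 and 90%, which widen the kept range, and 35.3% with each library thinned to 10 reads. Its share near 50% was 5.55% after thinning, 7.83% for 30 to 70% and 2.17% for 45 to 55%, while the mean of the other 6 lines was 11.1%, 16.3% and 5.32%. Without 145 to 148 Mb, an alternative chosen after seeing the data, line 4 kept 23.6%. With 20 reads required everywhere, 2187 reference CpGs were left, and the MEF-1 difference between CpGs high and low in line 4 turned to -0.316 points (exact p = 0.09375). The cause was not tested. Without MEF-1 lines 1, 4 and 5 it was 1.76 points (exact p = 0.125, the smallest that 4 lines allow). The difference between the families in the share near 50%, -0.0502 points, had the other sign after thinning (0.0790), for 30 to 70% (0.157) and without CpGs over 3 times the median coverage (0.00424). With lines of the same number paired as a replicate block it was -0.155 points over 6 pairs. The correlation of deviations between same-numbered lines was -0.00678 to 0.00110, so the numbers did not pair the lines. At the median of 27 reads, counting alone gives a level of 50% in line 4 an SD of 9.62 points, and only 1 library stands for this line.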
